A study of Mus musculus with 2 samples.

Results

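The genes described here encode the Fos, Jun and Egr transcription factors: *Fos*, *Fosb*, *Fosl1*, *Fosl2*, *Jun*, *Junb*, *Jund*, *Egr1*, *Egr2* and *Egr3*. They were listed by symbol, with earlier results of these data known, and all 10 were present, as 10 of 22485 named genes and 20 of 44397 features. The study asked how the response of mouse embryonic stem (ES) cells to retinoic acid (RA) depends on Utx, the X-linked demethylase of histone H3 lysine 27. RNA came from the line V6.5, labelled wild type, and from cells labelled as Utx knockout, for which the labels also name V6.5. Untreated cells of both lines grew on gelatin in medium with leukaemia inhibitory factor (LIF), and treated cells were kept for 48 h without LIF and with 100 nM RA. Each line had 1 array that held its untreated RNA in Cy3 and its treated RNA in Cy5. LIF withdrawal and RA therefore cannot be told apart, and "after RA" below stands for both. The labels do not say how many knockout clones were used.

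The AP-1 factor is a dimer of leucine zipper proteins, in which a Fos protein binds DNA only together with a Jun partner, while Jun proteins can also pair with each other. Egr proteins bind GC-rich sites through zinc fingers. *Fos*, *Fosb*, *Jun*, *Junb*, *Egr1*, *Egr2* and *Egr3* are classical immediate early genes. Serum, growth factors and stress switch them on within minutes through MAP kinases and, for many of them, serum response factor (SRF). This needs no new protein synthesis, and their transcripts decay fast. In mouse ES cells, LIF is known to raise *Junb* and *Fos* through STAT3 and ERK signalling.

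Every value is a log2 ratio of treated over untreated RNA within a line, so a ratio 1 below 0 is a level that was 2-fold lower after RA. The direction is the likely one, from the dyes in the labels, and the log base was inferred from the range of the values, from -3.71 to 5.86. A ratio gives no level, so the genes cannot be ranked by abundance and the labelled cell type cannot be checked from levels of its markers. The median over all genes was -0.02 on both arrays. In genes with 2 to 9 features, the SD between features of a gene had a median of 0.14 on each array. *Kdm6a*, the gene of Utx, stood at -0.39 in V6.5 and at -0.16 in knockout cells, and a ratio within a line does not check the deletion. With 1 array per line, neither the value of a line nor the difference between lines has a replicate check.

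After RA, *Fosl1*, *Junb* and *Egr1* fell and *Jun* and *Jund* rose in the test of a response shared by both lines. *Fos*, *Fosb* and *Egr2* lay below 0 on both arrays, and the first pair differed most between the lines. The shared test was limma's moderated test with Benjamini-Hochberg adjustment over all genes (n = 2 arrays), which treats both lines as repeats of 1 common response. Of the 10 genes, 3 fell, against 7.93% of all genes, and 2 rose, against 8.93% of all genes. When limma's treat tested for more than a 1.5-fold change, 0 of the 10 passed (the smallest adjusted p was 0.898, for *Egr1*). In bulk RNA, fewer cells of a type and less RNA per cell cannot be told apart. On the V6.5 array 1 member was at least 2-fold higher, against 2.52% of all genes, and 0 were at least 2-fold lower, against 1.59%. On the knockout array 5 members were at least 2-fold lower, against 1.65% of all genes, and 0 were at least 2-fold higher, against 2.92%. The median over the members was -0.24 for V6.5 and -0.89 for knockout cells. Of the members, 7 lay below 0 on both arrays, as did 41.2% of all genes.

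**Figure D1:**
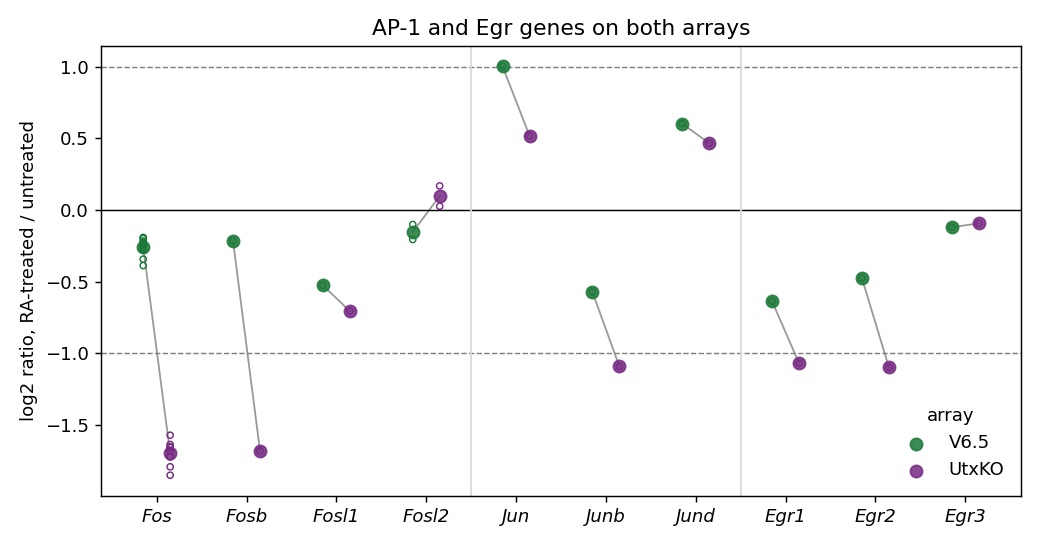
Log2 ratio of treated over untreated RNA (vertical axis) for each member gene (horizontal axis) on the V6.5 array (green) and the knockout array (purple). Filled points are gene means, open circles single features and dashed lines 2-fold; *Fos*, *Fosb*, *Junb*, *Egr1* and *Egr2* lie below the lower dashed line in the knockout only, and *Jun* reaches the upper dashed line in V6.5.

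*Fos*, the founding partner of Jun in AP-1, averaged -0.26 in V6.5 against -1.70 in knockout cells. It has the most features of the members, 10, and whether these carry the same probe sequence was not examined. In V6.5 these ran from -0.39 to -0.19 with a median of -0.25, and in knockout cells from -1.85 to -1.57 with a median of -1.68. All *Fos* features were thus lower on the knockout array than any *Fos* feature on the V6.5 array. Between features, the SD was 0.063 on the first array and 0.080 on the second. The features share an array and an RNA sample, so this spread is technical and says nothing of other cultures. As a level, *Fos* was 3.24-fold lower after RA in knockout cells. Its shared mean of -0.98 ± 0.37 (moderated SE, n = 2 arrays) did not pass in limma (adjusted p = 0.155).

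*Fosb*, a close relative of *Fos* with a transactivating and a truncated isoform, followed it closely on its single feature, with -0.22 in V6.5 against -1.68 in knockout cells. In the knockout, the ratio of *Fosb* lay within the range of the *Fos* features, as it did in V6.5. Its mean of -0.95 ± 0.37 (moderated SE, n = 2 arrays) did not pass in limma (adjusted p = 0.170). *Fosl1*, which encodes Fra-1, a Fos protein without the C-terminal activation domain of Fos, had -0.53 and -0.71 on 1 feature. This gene fell, with a mean of -0.62 ± 0.09 and an adjusted p of 0.0251 in limma (n = 2 arrays). *Fosl2*, which encodes the related Fra-2, had 2 features, at -0.21 and -0.10 in V6.5 and at 0.17 and 0.03 in the knockout. Both features changed sign between the arrays, and no feature lay further than 0.21 from 0. The mean of *Fosl2* was -0.03 (adjusted p = 0.870 in limma). Of the 4 Fos family genes, 1 passed.

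**Figure D2:**
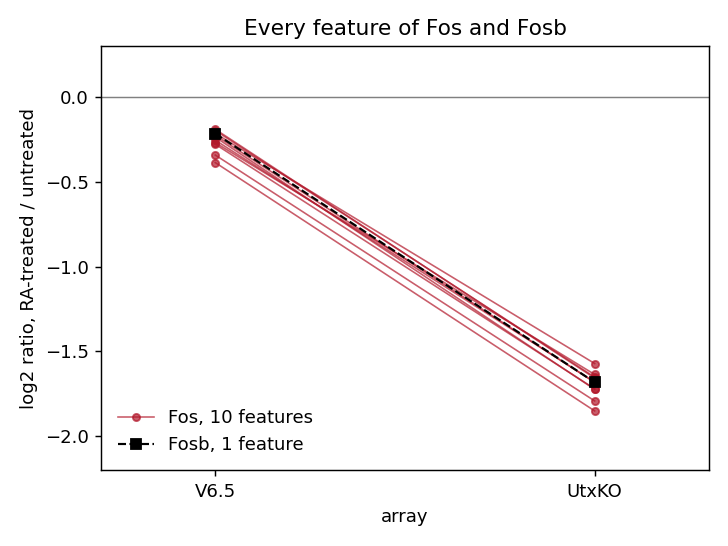
Log2 ratio (vertical axis) of the 10 features of *Fos* (red) and the 1 feature of *Fosb* (black, dashed) on each array (horizontal axis), with lines joining the same feature. All features of *Fos* run in parallel from between -0.39 and -0.19 in V6.5 to between -1.85 and -1.57 in the knockout, and *Fosb* lies among them.

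The promoters of *Fos* and *Fosb* are shown because these genes had nearly the same pair of ratios. Each line below gives the 130 bases before the RefSeq start site, 5′ to 3′, in the GRCm38.p6 build, and capitals mark motifs found in either orientation.
Fos, chr12:85473760-85473889, plus strand: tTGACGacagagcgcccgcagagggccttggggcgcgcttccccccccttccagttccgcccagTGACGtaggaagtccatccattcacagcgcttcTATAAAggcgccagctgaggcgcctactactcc
Fosb, chr7:19310046-19310175, minus strand: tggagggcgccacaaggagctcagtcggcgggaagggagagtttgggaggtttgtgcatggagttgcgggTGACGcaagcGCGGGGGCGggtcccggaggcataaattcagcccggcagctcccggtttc
Both hold the core of the cAMP response element (CRE), TGACG, at bases -66 to -62 in *Fos* and -60 to -56 in *Fosb*, counted back from the start site. *Fos* holds a further copy at -129 to -125. This core occurs in 20.8% of all 32851 promoter windows of 300 bases (250 before and 50 after a start), so its presence in both is no rare feature. *Fos* also has the TATA box TATAAA at -33 to -28, found in 13.6% of windows. *Fosb* has an Egr site, GCGNGGGCG, at -50 to -42, found in 5.55% of windows, and *Fosl2* has an Egr site at -79 to -71. A letter match is a description of the sequence and not evidence of binding.

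In the Jun family, *Jun* and *Jund* rose and *Junb* fell, so all 3 genes passed, in both directions. *Jun*, the main partner of Fos and a strong activator, had 1.00 in V6.5 against 0.52 in knockout cells. It was the only member at least 2-fold higher on either array, in V6.5, where it stood at the 2-fold limit itself, and it was 1.43-fold higher in knockout cells. Its mean was 0.76 ± 0.14 (moderated SE, n = 2 arrays, adjusted p = 0.0415 in limma). *Jund*, the Jun protein that many cells make steadily without stimulation, had 0.60 and 0.47, a mean of 0.53 ± 0.08 (adjusted p = 0.0288 in limma, n = 2 arrays). *Junb*, a weaker activator that can oppose Jun and a known LIF target, had -0.57 and -1.09. Its level was 1.49-fold lower after RA in V6.5 and 2.13-fold lower in the knockout, with a mean of -0.83 ± 0.15 (adjusted p = 0.0389 in limma, n = 2 arrays). Each of these genes rested on 1 feature.

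The promoters of *Jun* and *Junb* are shown as the pair of paralogs whose ratios had opposite signs, with the same bases and marks as above.
Jun, chr4:95052223-95052352, minus strand: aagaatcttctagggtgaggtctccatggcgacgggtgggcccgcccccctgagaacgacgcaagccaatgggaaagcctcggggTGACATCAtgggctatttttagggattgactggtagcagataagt
Junb, chr8:84978749-84978878, minus strand: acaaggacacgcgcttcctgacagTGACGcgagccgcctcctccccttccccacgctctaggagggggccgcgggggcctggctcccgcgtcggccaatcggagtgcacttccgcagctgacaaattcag
*Jun* holds TGACATCA, the variant AP-1 site known from the autoregulation of this gene, at -45 to -38, a match found in 3.62% of windows. *Junb* has the CRE core at -106 to -102 and TATAAA at 1 to 6, just inside its annotated transcript. The standard AP-1 site TGANTCA (7.81% of windows), the full CRE TGACGTCA (1.79%) and the STAT site TTCNNNGAA (8.30%) were found in 0 of the 7 members with a window examined, which says only that these letters are not in these windows.

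All 3 Egr genes lay below 0 on both arrays, each on 1 feature, and *Egr1* fell. *Egr1*, the zinc finger factor most used as a readout of ERK activity, had -0.64 in V6.5 against -1.07 in knockout cells, or 1.56-fold and 2.10-fold lower. Its mean was -0.85 ± 0.13 (adjusted p = 0.0296 in limma, n = 2 arrays). *Egr2*, known as Krox20 for its role in hindbrain segments and in myelinating Schwann cells, had -0.48 and -1.10. Its mean of -0.79 ± 0.17 missed the threshold (adjusted p = 0.0553 in limma, n = 2 arrays), and it passed when each array was centred on its median (adjusted p = 0.0475 in limma). *Egr3*, which acts in muscle spindles and lymphocytes, had -0.12 and -0.09, within the median SD between features (adjusted p = 0.378 in limma). The knockout ratios of *Egr1*, *Egr2* and *Junb* lay within 0.03 of each other, between -1.10 and -1.07.

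*Egr2* is shown for its CArG box, the site of SRF. Such a box was found in 4 of its 5 annotated windows and in no other member examined, while *Fosl1*, *Egr1* and *Egr3* were not searched. These windows do not all hold the same site. The one starting furthest upstream among them has CCTTTTTTGG, and the others overlap and share a single genomic site, CCATATATGG. The shared site is given with flanks from base -80 to -51 of the middle window. Capitals mark the CArG box and the CRE core on the opposite strand.
Egr2, chr10:67537789-67537818, plus strand: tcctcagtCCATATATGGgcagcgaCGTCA
A CArG box occurs in 1.63% of all windows. The CArG box of *Fos* known from the literature lies further upstream than the windows used here reach.

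The lines were compared by subtracting each V6.5 ratio from that of knockout cells, with no test. The difference was below 0 for 8 of the 10 members, as it was for 49.3% of all genes. For 2 members, *Fos* and *Fosb*, the knockout ratio was at least 2-fold lower, against 0.467% of all genes, and for 0 members it was at least 2-fold higher, against 0.583% of all genes. The difference was -1.44 for *Fos* and -1.47 for *Fosb*, and only 25 and 19 of the 22485 genes had a lower one. Across the *Fos* features the difference ran from -1.49 to -1.36, with an SD of 0.043. Among the 387 genes with at least 10 features, 0 had a lower difference than *Fos*, and 2 had a larger one in size. *Egr2* followed with -0.62, *Junb* with -0.52, *Jun* with -0.48 and *Egr1* with -0.43. *Fosl1* (-0.18) and *Jund* (-0.13) were nearer to 0. *Egr3* had 0.03 and *Fosl2* had 0.25, the members with a higher ratio in the knockout. *Jun* differs from the rest of this group in sign: its ratio was above 0 in both lines and smaller in the knockout, while those of *Fos*, *Fosb*, *Junb*, *Egr1* and *Egr2* were below 0 in both and further from 0 in the knockout.

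**Figure D3:**
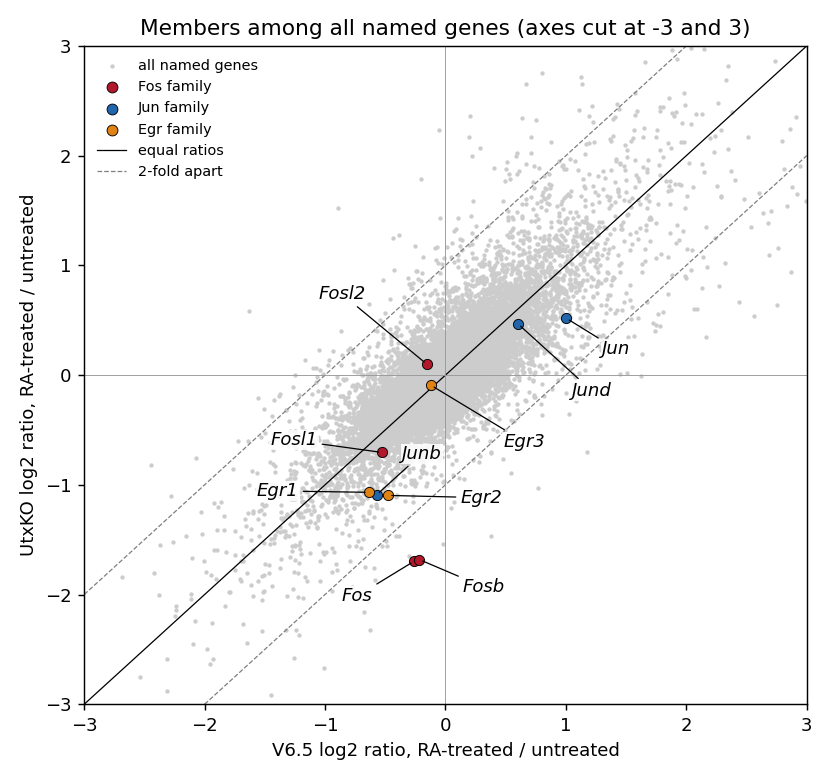
Log2 ratio in V6.5 (horizontal axis) against the knockout (vertical axis) for all named genes (grey, with both axes ending at -3 and 3) and the members (coloured by family). *Fos* and *Fosb* lie together below the dashed line that marks a 2-fold lower ratio in the knockout, and *Egr1*, *Egr2* and *Junb* lie together between it and the line of equal ratios.

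The order of the members by V6.5 ratio was *Egr1* (-0.64), *Junb* (-0.57), *Fosl1* (-0.53), *Egr2* (-0.48), *Fos* (-0.26), *Fosb* (-0.22), *Fosl2* (-0.15), *Egr3* (-0.12), *Jund* (0.60) and *Jun* (1.00). Neighbours from *Egr1* to *Egr2*, and from *Fos* to *Egr3*, stood closer together than the median SD between features of 0.14. In the knockout, *Fos* and *Fosb* came first at -1.70 and -1.68, followed by *Egr2* (-1.10), *Junb* (-1.09), *Egr1* (-1.07), *Fosl1* (-0.71), *Egr3* (-0.09), *Fosl2* (0.10), *Jund* (0.47) and *Jun* (0.52). *Fos* and *Fosb* thus stood near the centre of the order in V6.5 and at its lower end in the knockout. In the whole knockout array, 77 genes had a lower ratio than *Fos* and 82 a lower one than *Fosb*, against 3991 and 4825 in V6.5.

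Likeness to other genes was taken as the distance between pairs of ratios, which rests on 2 values per gene. The nearest genes to *Fos* were *Ctxn3* (-0.30 and -1.65, a distance of 0.062), *Vax2os* (0.26) and *Ebf1* (0.26). The nearest to *Fosb* were *Ctxn3* (0.090), *Gm13889* (0.24) and *Ebf1* (0.28). This region of the plane is thinly filled, with 6 genes outside the member list within 0.3 of *Fos* and 5 within 0.3 of *Fosb*. The other members at least 2-fold from 0 on an array had between 140 (*Egr2*) and 272 (*Jun*) genes that near. For *Jun* the nearest were *Tuba1c*, *Itpr2* and *Il6ra*, for *Junb* *Prrx1*, *Fmod* and *Prdm16*, for *Egr1* *Aspg*, *Prmt8* and *Tbx3*, and for *Egr2* *Tsks*, *Prkg2* and *Necab3*, all within a distance of 0.067.

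The genes around AP-1 and Egr were read from the same limma fit through 7 lists. In this fit 7.93% of all genes fell and 8.93% rose, the shares to set beside each list count. Of 17 measured dimer partners and relatives, 1 rose and 3 fell. *Batf3*, a dendritic cell AP-1 factor that pairs with Jun, rose by 1.34 ± 0.07 (moderated SE, n = 2 arrays). *Ddit3*, the stress factor CHOP, fell (-0.90 and -1.10), as did the small Maf protein gene *Maff* (-0.91 and -0.94) and *Jdp2*, a Jun dimerization partner that represses AP-1 (-0.81 and -0.56). *Batf* had the widest gap between the lines, with 0.16 and 0.57 over 10 features. Of 4 Egr relatives and corepressors, *Egr4* fell (-0.61 and -0.70) and *Wt1*, a zinc finger factor of the developing kidney and gonad that binds Egr-type sites, rose by 3.44 ± 0.24 (moderated SE, n = 2 arrays), with 2.98 and 3.89. Of all 22485 genes, 4027 were lower and 3785 higher at an unadjusted p under 0.05 in limma. Of 6 genes for SRF and its cofactors, 0 passed in limma, and 1 was lower and 0 higher at that unadjusted level. Their values ran from -0.29 to 0.21 in V6.5 and from -0.20 to 0.18 in the knockout, with the widest gap for *Elk1* (0.12 and -0.09).

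Other immediate early genes moved both ways. Of 36 measured, 12 fell, against 7.93% of all genes, and 7 rose, against 8.93%. List medians were -0.0033 for V6.5 and -0.15 for knockout cells. Those with the lowest means among the genes that fell were *Klf4* (-1.65 and -2.44), a pluripotency factor that LIF also raises, *Socs3* (-1.26 and -1.45), the feedback inhibitor of STAT3 signalling, *Ptgs2* (-0.998 and -1.27 over 10 features), which encodes an inducible cyclooxygenase, and *Arc* (-1.05 and -1.08), known from active synapses. Those with the highest means were *Ccn2* (0.97 and 0.80), a matricellular target of SRF and YAP, *Csrnp1* (0.90 and 0.70), *Rhob* (0.88 and 0.55), a small GTPase, and *Klf6* (0.78 and 0.59). *Zfp36l1*, which promotes decay of AU-rich transcripts, had the widest gap, with -1.46 and -0.61, and did not pass (adjusted p = 0.0552 in limma), though it did with each array centred on its median (adjusted p = 0.0465 in limma). None of the 36 genes had a difference between the lines as low as *Fos*: the knockout ratio was below the V6.5 ratio in 23 of them, and the lowest difference was that of *Klf4*, at -0.80.

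Upstream of the members, 1 of 13 measured ERK, JNK and p38 pathway kinase genes fell, against 7.93% of all genes. It was *Rps6ka5* (-0.36 and -0.39), whose product MSK1 phosphorylates histone H3 at immediate early genes. Of these kinase genes 0 rose, against 8.93% of all genes. With each array centred on its median, or with both at the same median absolute deviation, 2 rose. At an unadjusted p under 0.05 in limma, 4 of these kinase genes were higher and 3 lower. Of all 22485 genes, 3785 were higher and 4027 lower at that level. *Map2k6*, a p38 kinase kinase, had the widest gap, with -0.01 and 0.46. Of 16 MAP kinase phosphatases and Sprouty-type inhibitors, 3 fell, against 7.93% of all genes, and 1 rose, against 8.93%. *Spry2* (-0.78 and -0.79), *Dusp1* (-0.75 and -0.72), itself an immediate early gene, and *Spred2* (-0.51 and -0.44) fell. The fit favours genes with like ratios in both lines, since a difference between lines enters its residual. Over the whole list the difference, knockout minus V6.5, ran from -0.78 to 1.04. *Dusp9*, a phosphatase of ERK in ES cells, rose by 1.46 ± 0.14 (moderated SE, n = 2 arrays). *Dusp4*, a nuclear ERK phosphatase, had -0.55 in V6.5 against 0.50 in knockout cells and did not pass.

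Of 18 measured textbook AP-1 target genes, 7 fell, against 7.93% of all genes, and 1 rose, against 8.93%. List medians were -0.27 for V6.5 and -0.29 for knockout cells. Those with the lowest means were *Vim*, the intermediate filament of mesenchymal cells (-1.52 and -1.98), the cyclin *Ccnd1* (-1.04 and -1.69), the metalloprotease inhibitor *Timp1* (-1.23 and -1.23) and the stromelysin *Mmp3* (-0.94 and -1.11). The gelatinase *Mmp9* rose by 1.14 ± 0.14 (moderated SE, n = 2 arrays, 10 features), with 1.39 and 0.90. *Mt2*, a metallothionein, had the widest gap, with -0.19 and 0.93. Over all 7 lists, 27 of 110 measured genes fell, against 7.93% of all genes, and 11 rose, against 8.93%. Medians over these lists were -0.08 for V6.5 and -0.07 for knockout cells.

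**Figure D4:**
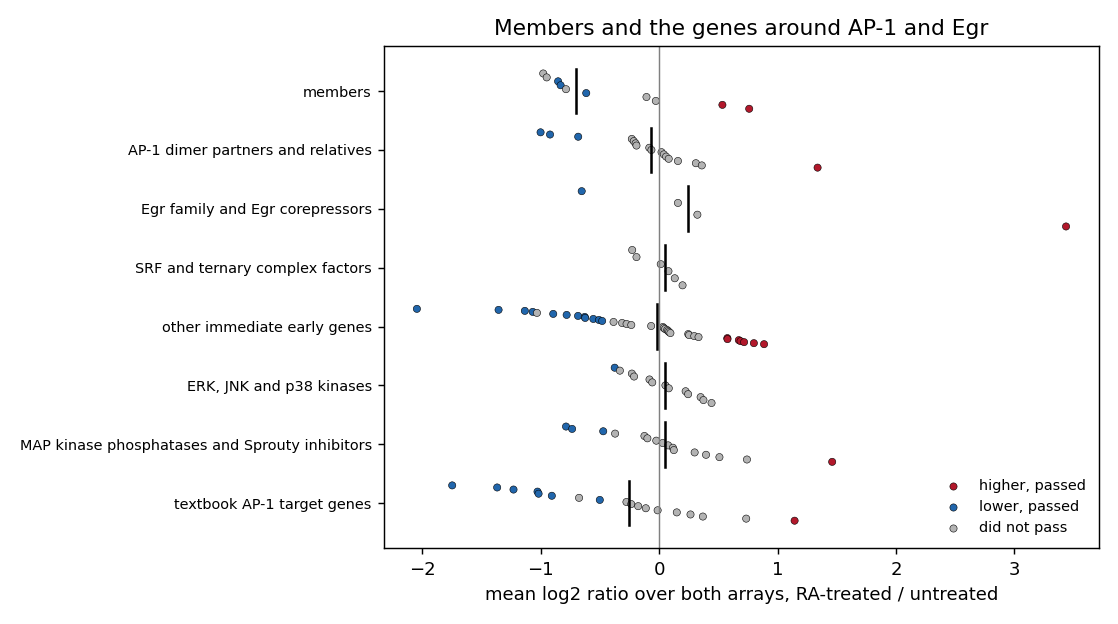
Mean log2 ratio over both arrays (horizontal axis) of the members and of each list of surrounding genes (vertical axis). Each point is a gene, blue where it fell and red where it rose in the shared limma test and grey where it did not pass, and black bars are medians over the genes of a row. The members have 3 blue and 2 red points, and each list with over 6 genes apart from the kinases holds both blue and red points.

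Fibroblast markers were examined since ES cells are often kept on feeder fibroblasts, though the untreated cells of both lines here grew on gelatin. Of 9 such markers, 6 fell, against 7.93% of all genes, and 0 rose, against 8.93%. Their medians were -1.01 for V6.5 and -1.32 for knockout cells. Among those that fell, *Col1a1* had -1.24 and -1.36, *Col3a1* -1.35 and -1.32 and *Thy1* -0.80 and -1.46. The 3 that did not pass were *Dcn* (-0.38 and -0.05), *Lum* (-0.19 and -0.08) and *Pdgfrb* (0.02 and 0.11). Fibroblasts also express Fos, Jun and Egr genes and several of the target genes above, and the part of such cells in the members' ratios was not tested. The difference between the lines ran from -0.68 to 0.33 in the fibroblast list, with a median of 0.03. At an unadjusted p under 0.05 in limma, 6 fibroblast markers were lower and 0 higher. At that level 4027 of all 22485 genes were lower and 3785 higher. Of 5 ES cell markers, *Pou5f1* fell and 0 rose, with 4 lower and 0 higher at an unadjusted p under 0.05 in limma. Ratios of these markers ran from -0.94 to 0.29 in V6.5 and from -1.58 to -0.16 in the knockout. Their difference between the lines ran from -0.64, for *Pou5f1*, to 0.40, with a median of 0.20. Of 4 measured neural markers 1 rose and 1 fell, and of 5 endoderm markers 0 passed in limma, with 1 higher and 0 lower at an unadjusted p under 0.05.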

How the data were processed

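Total RNA was labelled as oligo-dT primed cRNA and read on dual-colour Agilent arrays, 1 per line, per the labels' protocols. The deposited values are 1 log2 ratio per feature and array. The submitters' processing notes name limma, with neither version nor role. How background was corrected and arrays were normalized is not given in the sources used here. Both columns average 0. The dyes were placed alike on both arrays, so any dye bias of a gene is carried by both of its ratios. Spot intensities were not used here, which leaves signal over background unknown, and precision is limited by having 2 arrays.

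The platform annotation named 33026 features of 22485 genes, and features were averaged per gene. The shared response was fitted with lmFit and eBayes in limma 3.58.1 (R 4.3.3), an intercept over both arrays, two-sided, at an adjusted p under 0.05. The fit has 1 residual and 2.98 prior degrees of freedom, and any difference between lines enters its residual, so its p-values describe the spread between these arrays and not between cultures.

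The members and lists were chosen with earlier results of these data known. Genes outside the member list were named by rule: in each list up to 4 genes per direction with the largest mean among those that passed, and the gene with the widest gap between arrays; 3 fibroblast markers; and the 3 nearest genes to each member past 2-fold. *Pou5f1*, *Dcn*, *Lum* and *Pdgfrb* were named after their values were seen. Promoter windows came from RefSeq (GRCm38.p6), and 7 members were matched and examined. *Fosl1* and *Egr3* had no window, and member windows on chromosome 18, which holds *Egr1*, were left out. Of the motifs, 5 were searched first, and the CRE core, the TATA box and the variant AP-1 site of *Jun* were added after that search.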

Additional observations from a re-analysis of the deposited data

Results flagged for a closer look

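Of the genes named above, 5 had ratios of opposite sign in the lines, and the difference (knockout minus V6.5) was not tested for any of them. It was 0.25 for *Fosl2*, with -0.15 in V6.5 and 0.10 in the knockout. It was -0.21 for *Elk1*, 0.47 for *Map2k6*, 1.04 for *Dusp4* and 1.13 for *Mt2*. *Fosl2*, *Elk1* and *Map2k6* each had at least 1 ratio within the median SD between features of 0.14.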

How the results depend on the processing

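The shared counts were recomputed with each array centred on its median, with both arrays at the same median absolute deviation, with the median over features, with robust eBayes, with a fit on all features and against 1.5-fold with treat. Over all genes, the members and the pooled lists, only treat moved a count by over 1.5 times: 196 genes rose and 97 fell over all genes, 0 members rose and 0 fell (treat's smallest adjusted p among them was 0.898, for *Egr1*), and 2 list genes rose and 3 fell. Within the single lists, median centring and equal deviations each also raised the count of kinase genes that rose from 0 to 2. At 1.5-fold in place of 2-fold, 2 members were higher and 1 lower on the V6.5 array. The mean of *Fosl2* turned to 0.01 with median centring and to 0.00 with equal deviations (0.0053 and 0.0039), and that of *Dusp4* to 0.01 and 0.00 (0.0093 and 0.0035), none of which passed. *Egr2* passed with median centring (adjusted p = 0.0475), with equal deviations (0.0491) and as a single feature in the fit on all features (0.0498), all in limma, and *Zfp36l1* passed with median centring (0.0465). With 1 array left out no test can be made, and the value is that of the other line, given above. No paired analysis was possible because each line has 1 array. How far each signal stood above background is not known here, which limits what single features can show.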
